A study of Mus musculus with 6 samples.

Results

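The D-type cyclins, their kinase partners and the inhibitors of these kinases were followed at the RNA level in single cells of the mouse subventricular zone (SVZ) after cortical stroke. The set holds 10 genes, Ccnd1, Ccnd2, Ccnd3, Cdk4, Cdk6, Cdkn1a, Cdkn1b, Cdkn1c, Cdkn2c and Btg2, taken by name from the 34111 mouse genes of the count matrix. The rule is by name and uses no measured value, but the genes were picked with earlier results of these data known. The study sorted microglia (CD11b+ CD45low) and neural stem and precursor cells (NSPCs, YFP+) from the SVZ on the side of a cortical photothrombotic (PT) lesion, induced by illuminating Rose Bengal. Its 3 conditions, uninjured mice and mice at 1 day (PT D1) or 7 days (PT D7) from the lesion, had 2 libraries each, of 192 wells, sequenced by mCEL-Seq2. In mCEL-Seq2 each mRNA molecule is tagged near its 3′ end with a unique molecular identifier (UMI), so a molecule counts 1 time whatever the length of its gene. Of the 658 cells deposited, 222 were labelled NSPCs, 416 microglia and 20 unknown or ependymal. The authors divided NSPCs into quiescent and activated type B cells (stem cells), type C cells (transit amplifying) and neuroblasts, and microglia into clusters named homeostatic (cluster 0 below), activated (1), unknown (2), development-associated (3) and disease-associated (4).

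All mice of the 3 conditions were Nestin-CreERT2:R26-yfp on a C57BL/6 N background, adults of both sexes. Tamoxifen was given to this line at 8 to 12 weeks of age on 5 consecutive days, and PT followed 5 to 14 days after the last injection. The Cre recombinase runs from the Nestin promoter, so YFP marks cells that used this promoter at the time of tamoxifen and the cells that descend from them. SVZ tissue of every condition was digested with papain at 37°C before sorting. No source used here says which mice and which plate a library came from. A plate had more wells than a library. The libraries of a condition may therefore share a plate and a pool of cells, and may not be independent replicates. If they share a pool, the spread between them does not cover variation between mice. A condition effect also cannot be told apart from a plate effect. The p-values of conditions rest only on the spread between the 2 libraries of each condition. This spread was estimated over all 6 libraries of a class, with information shared over genes.

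D-type cyclins bind Cdk4 and Cdk6 in G1, and the active kinases phosphorylate the retinoblastoma protein, which releases E2F factors and lets the cell enter S phase. The Cip/Kip inhibitors p21 (Cdkn1a), p27 (Cdkn1b) and p57 (Cdkn1c) bind cyclin-kinase complexes, whereas the INK4 inhibitor p18 (Cdkn2c) binds Cdk4 and Cdk6 directly. Btg2 is an antiproliferative gene and, like Cdkn1a, a classical target of p53. In the adult SVZ, cyclin D2 is known for its role in the division of neural precursors, and the inhibitors are known for keeping stem cells quiescent.

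In GRCm39, with the GENCODE vM39 annotation, Ccnd1 lies at chr7:144483668-144493662, Ccnd2 at chr6:127102125-127129156 and Ccnd3 at chr17:47815767-47910624. Cdk4 lies at chr10:126895180-126903789 and Cdk6 at chr5:3391485-3581008. Cdkn1a is at chr17:29309936-29319701, Cdkn1b at chr6:134897364-134902476, Cdkn1c at chr7:143012069-143014806 and Cdkn2c at chr4:109517957-109524386, and Btg2 is at chr1:134002908-134015033. Each of the 10 genes overlaps an annotated gene on the other strand (Dino and Gm64878 for Cdkn1a), and Ccnd3 and Cdkn1c also overlap genes on their own strand. No source used here says whether the counting used strand, so reads of such neighbours may be counted with a member.

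RefSeq promoter windows (250 bases before to 50 after a start site, table build GRCm38.p6) were held for 7 members in 10 windows, and each matched 1 place in GRCm39. The windows of 3 members are shown, because Cdkn1a and Btg2 are the members that p53 is known to switch on and Cdk4 was higher in both S and G2M cells than in G1 cells below. Capitals mark, in this order, a p53 motif with 1 mismatch at the upstream Cdkn1a start (chr17:29309703-29310002), the GC box GGGCGG at the downstream Cdkn1a start (chr17:29312493-29312792), the CRE TGACGTCA with overlapping GC boxes at Btg2 (chr1:134006844-134007143) and the E-box CACGTG at Cdk4 (chr10:126899154-126899453). Btg2 is read from the minus strand and the others from the plus strand, and each sequence runs 5′ to 3′.
Cdkn1a, upstream start: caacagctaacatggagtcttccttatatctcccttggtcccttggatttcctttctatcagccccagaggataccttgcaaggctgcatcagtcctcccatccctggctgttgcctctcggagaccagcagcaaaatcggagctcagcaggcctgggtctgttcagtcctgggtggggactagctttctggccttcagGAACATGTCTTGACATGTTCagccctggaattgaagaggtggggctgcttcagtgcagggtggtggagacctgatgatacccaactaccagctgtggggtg
Cdkn1a, downstream start: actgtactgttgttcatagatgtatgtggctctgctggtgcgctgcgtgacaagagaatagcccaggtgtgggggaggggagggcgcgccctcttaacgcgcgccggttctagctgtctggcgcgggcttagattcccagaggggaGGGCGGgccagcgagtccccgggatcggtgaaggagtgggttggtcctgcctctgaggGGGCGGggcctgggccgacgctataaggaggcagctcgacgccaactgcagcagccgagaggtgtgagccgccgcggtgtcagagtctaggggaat
Btg2: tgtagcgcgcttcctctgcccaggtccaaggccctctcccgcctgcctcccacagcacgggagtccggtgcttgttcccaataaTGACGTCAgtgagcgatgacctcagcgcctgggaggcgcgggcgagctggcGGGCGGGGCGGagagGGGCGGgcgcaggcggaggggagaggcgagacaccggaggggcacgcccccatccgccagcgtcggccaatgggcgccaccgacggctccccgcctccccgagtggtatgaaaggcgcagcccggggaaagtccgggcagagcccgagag
Cdk4: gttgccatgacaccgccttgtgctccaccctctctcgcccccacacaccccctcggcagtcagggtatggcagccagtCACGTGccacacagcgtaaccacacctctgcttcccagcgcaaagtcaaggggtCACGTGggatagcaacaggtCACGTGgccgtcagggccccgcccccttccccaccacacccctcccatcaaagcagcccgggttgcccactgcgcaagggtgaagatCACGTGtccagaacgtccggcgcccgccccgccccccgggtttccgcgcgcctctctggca

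The windows of the 2 Cdkn1a start sites lie 2790 bases apart, and the p53 motif begins 51 bases before the upstream one. A p53 motif with at most 1 mismatch was found in 0.0883% of the 32851 promoter windows of the table, and among the 10 windows of the members only in this one. The Cdk4 window held 4 E-boxes, a motif present in 7.15% of all windows. The CRE of the Btg2 window was present in 1.79% of all windows and the GC box in 35.7%. TATAAA (13.6% of windows), the AP-1 motif TGANTCA (7.81%) and the E2F motif TTTGGCGC (0.514%) were searched on both strands too, and of these only TATAAA was found in a member, Cdk6. A match of letters is a description and not a bound site.

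Per library, 15 to 61 NSPCs gave 82504 to 497292 UMIs in all and 54 to 84 microglia gave 294984 to 468186. Summed levels of 8 microglial markers were 6005 to 14760 counts per 1000000 UMIs (CPM) in the microglia of a library and 181 to 1248 in its NSPCs. Choroid plexus markers stood apart in the uninjured libraries, with 1523 to 3799 CPM in NSPCs and 4650 to 10525 in microglia, against 41.5 to 97.0 and 196 to 603 after PT. The highest value of microglial markers in NSPCs was that of PT D7 library 1, which held 15 NSPCs. Well numbers were reused between libraries (164 of 180 occur in more than 1), so a shared number is not a shared cell. Of 4907 genes tested in NSPCs 8 were members (Ccnd3 and Cdkn1c were too low), and of 4846 tested in microglia 9 were members (Ccnd3 was too low).

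Ccnd2 was by far the most abundant member in NSPCs. Summed over all NSPCs it reached 3489.6 CPM, followed by Cdk4 at 498 and Cdkn1b at 245, and the lowest were Ccnd1 at 31.2, Ccnd3 at 17.2 and Cdkn1c at 12.7. In microglia Btg2 came first in both uninjured libraries (173 and 218 CPM). Cdkn1a was at 177 CPM over all microglia, with 278 and 473 at PT D1 but 46.7 and 68.3 in uninjured libraries, below Cdk6 at 98.8 and 70.5. In 4 members, Ccnd2, Cdk4, Cdkn1b and Cdkn2c, every NSPC library lay above every microglial library, against 29.9% of the 7514 genes tested in both classes. No member lay above in every microglial library, against 10.2% of these genes.

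**Figure D1:**
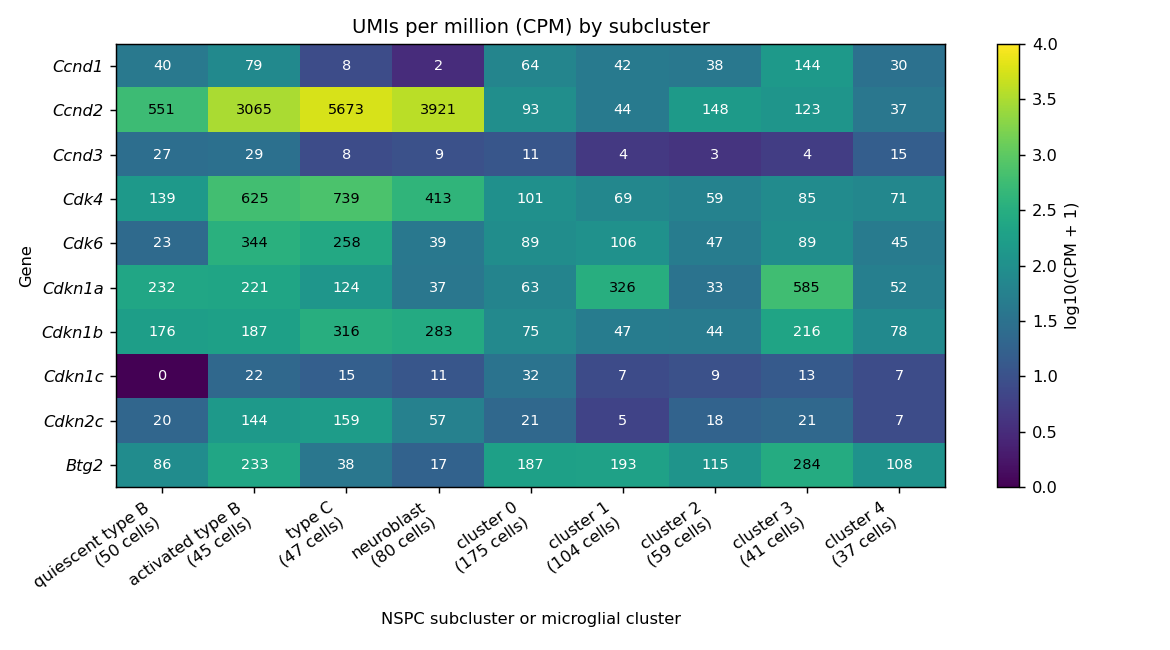
Heat map of CPM for the 10 genes (rows) in 4 NSPC subclusters and 5 microglial clusters (columns), all libraries summed, with the value printed in each field and the colour on a log10 scale. Ccnd2 reached 5673 in type C cells and 551 in quiescent type B cells, and Cdkn1a was highest in microglial cluster 3, at 585.

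Ccnd2, the D-type cyclin of neural precursors, differed in steps between the NSPC subclusters. Over the 6 libraries quiescent type B cells ranged from 376 to 904 CPM with a median of 551, neuroblasts from 2466 to 5211 with a median of 4032, and type C cells from 4600 to 7655 with a median of 6337. Activated type B cells were present with at least 3 cells in 5 libraries and ranged from 2134 to 3898. The quiescent type B cells lay below the other NSPC subclusters in every library, activated type B cells overlapped with neuroblasts, and neuroblasts overlapped with type C cells. With every cell reduced to 1000 randomly drawn UMIs, Ccnd2 was seen in 36.0% of quiescent type B cells against 84.4% of activated ones, 97.9% of type C cells and 87.5% of neuroblasts. The subclusters were drawn by the authors from the expression of these cells, so these levels are a description and carry no test.

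In microglia Ccnd2 was found at 85.6 CPM, which is 2.45% of its level in NSPCs. The 14 genes used as NSPC markers were found in microglia at 3.40% (Dcx) to 32.5% (Slc1a3) of their NSPC level. They include Mki67 and Top2a, which mark dividing cells of any kind. Ccnd2 thus lay below all of these markers, and the part of NSPC transcripts in its microglial level was not tested. Of its 191 UMIs in microglia, 133 were in the 127 cells that held at least 3 NSPC markers (161 CPM) and 58 in the other 289 (41.3 CPM), and the 10 highest cells held 40.8%. Cdk4 and Cdkn2c, at 16.4% and 15.5% of their NSPC level, lay above all of these markers except Cd24a (17.2%) and Slc1a3. Cdkn1b, at 32.1%, lay above all except Slc1a3, and Cdk6, at 47.5%, lay above all of them. The part of NSPC transcripts in these levels was not tested.

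The make-up of the D-type cyclin UMIs differed between the classes. In NSPCs 98.6% of 5565 D-type cyclin UMIs came from Ccnd2 (exact Clopper-Pearson 95% interval 98.3% to 98.9%), 0.881% from Ccnd1 and 0.485% from Ccnd3. In microglia 38.8% of 340 UMIs came from Ccnd1 (33.6% to 44.2%), 56.2% from Ccnd2 and 5.00% from Ccnd3. The microglial libraries differed, and the lowest and highest Ccnd1 shares were both at PT D7. They were 64.0% (42.5% to 82.0%) in library 1 and 16.1% (7.62% to 28.3%) in library 2. Within NSPCs the Ccnd1 share was 6.45% in quiescent type B cells and 2.50% in activated ones, against 0.133% for type C cells and 0.0553% for neuroblasts. These intervals cover counting error only.

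**Figure D2:**
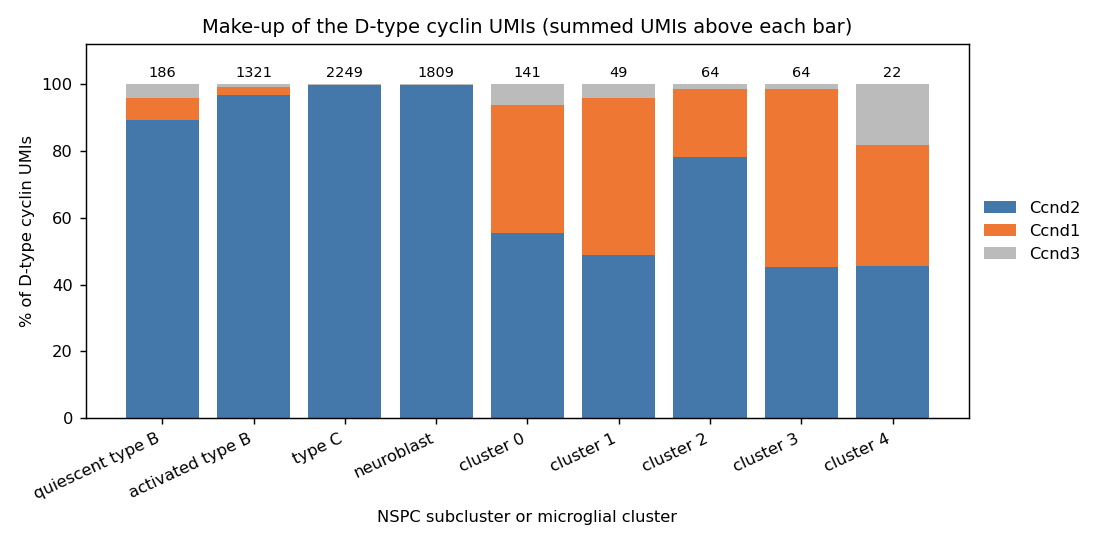
Stacked bars of the percentage of D-type cyclin UMIs from Ccnd2, Ccnd1 and Ccnd3 in each NSPC subcluster and microglial cluster, with the summed number of UMIs above each bar. Ccnd2 makes up nearly all of the UMIs in type C cells and neuroblasts, and Ccnd1 takes 53.1% in cluster 3, where 1 cell held 13 of its 34 UMIs.

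Ccnd1, which mitogens are known to induce, was rare in NSPCs and came mainly from PT D1. It was at 34.4 and 6.03 CPM in the uninjured NSPC libraries, 132 and 50.3 at PT D1, and PT D7 gave 0 (0 of 82504 UMIs, which allows up to 36.4 CPM) and 15.2. Both PT D1 libraries were above the other 4. In PT D1 library 1, 12 of the 19 Ccnd1 UMIs were in 2 cells called G2M. The highest single NSPC of all libraries held 11 Ccnd1 UMIs. The log2 fold change of PT D1 against uninjured was 2.60 ± 0.74 (SE, 2 libraries per condition), and the adjusted p of 0.064 from edgeR's quasi-likelihood test, Benjamini-Hochberg adjusted over all genes tested, missed the threshold of 0.05. Over 14 alternatives the log2 fold change ranged from 1.26 to 4.23 and the adjusted p from 0.00055 to 0.72, with 5 of 14 under the threshold and the highest without uninjured library 2. Of the 36 Ccnd1 UMIs of PT D1 NSPCs, 20 were in activated type B cells and 12 in quiescent type B cells. All 7 Ccnd1 UMIs of uninjured NSPCs and all 6 of PT D7 were in activated type B cells. Their level was 67.5 CPM without injury and 90.2 at PT D1, and PT D7 gave 66.1. The exact Poisson intervals of uninjured (27.2 to 139) and PT D1 cells (55.1 to 139) overlapped. Activated type B cells made up 8 of the 75 uninjured NSPCs and 25 of the 71 from PT D1. The part of this mix in the library values was not tested. In quiescent type B cells these 12 UMIs stood against 0 of 118580 in uninjured cells and 0 of 79382 at PT D7, which allow up to 25.3 and 37.8 CPM, and 6 of 18 cells held them. The share of Ccnd1 among the D-type cyclin UMIs of NSPCs was 0.305% (0.123% to 0.627%) without injury, 2.36% (1.66% to 3.25%) at PT D1 and 0.345% (0.127% to 0.749%) at PT D7. Such intervals cover counting error only and take no account of UMIs that share a cell.

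In microglia Ccnd1 was at 41.2 and 72.6 CPM in uninjured libraries, 30.6 and 105 at PT D1, and PT D7 gave 54.2 and 30.4. The conditions overlapped, and the log2 fold change at PT D1 was 0.39 ± 0.51 (SE). The highest level was in cluster 3, at 144 CPM, against 29.7 to 64.3 in the other clusters, and 35 of the 41 cells of cluster 3 came from PT D1 library 2. In that cluster and library 1 cell held 13 of the 34 Ccnd1 UMIs of cluster 3. The effect of PT D1 on Ccnd1 was lower by 2.29 ± 0.97 (SE, log2) in microglia than in NSPCs, with an adjusted p of 0.79 in edgeR's quasi-likelihood test of the interaction.

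Ccnd2 and Ccnd3 were not called in any comparison of conditions. Ccnd2 was at 3864 and 3696 CPM in uninjured NSPCs, 3390 and 2923 at PT D1, and PT D7 gave 4545 and 3420. Both PT D1 libraries lay below the other 4, and the log2 fold change against uninjured was -0.33 ± 0.18 (SE, adjusted p = 0.39, edgeR). Over 17 alternatives it ranged from -0.39 to 0.38. By subcluster, a description with no test, Ccnd2 was at 3968 CPM in uninjured neuroblasts and 4910 at PT D1, and at 5946 and 6391 in type C cells. Activated type B cells went the other way, at 3666.5 and 2443, as did quiescent ones, at 590 and 513. The part of the mix of subclusters in the library values was not tested. Ccnd3, which had 27 UMIs in NSPCs and 17 in microglia, was at 8.61 and 6.03 CPM in uninjured NSPCs, 41.8 and 29.6 at PT D1, and PT D7 gave 24.2 and 12.6. In microglia it was at 11.0 and 15.0, 5.56 and 4.47, and 0 and 6.75 CPM in the same order. Its PT D1 libraries lay above the uninjured ones in NSPCs and below them in microglia, and the difference between these effects was -3.51 ± 1.22 (SE, log2) with an adjusted p of 0.69 over 7514 genes in edgeR's interaction test.

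The kinases Cdk4 and Cdk6, which the D-type cyclins activate, were highest in the dividing NSPC subclusters. Cdk4 was at 739 CPM in type C cells and 413 in neuroblasts, and the activated type B cells had 625 against 139 in the quiescent ones. Cdk6 was at 344 and 258 CPM in activated type B and type C cells but at 39.1 in neuroblasts and 23.2 in quiescent type B cells. Every library had more Cdk4 in neuroblasts (355 to 698 CPM) than in quiescent type B cells (0 to 202), whereas Cdk6 overlapped between them (0 to 47.7 against 0 to 40.3). Microglial clusters were at 59.2 to 101 CPM for Cdk4 and 44.6 to 106 for Cdk6.

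Between conditions Cdk4 and Cdk6 were not called. Cdk4 in NSPCs was at 542 and 440 CPM in uninjured libraries, 508 and 418 at PT D1, and PT D7 gave 655 and 592. The PT D7 libraries lay above the other 4, with a log2 fold change of 0.44 ± 0.23 (SE) against PT D1 and an adjusted p of 0.49 in edgeR. Cdk6 in microglia was at 98.8 and 70.5, 108 and 96.0, and 37.3 and 67.5 CPM in the 3 conditions. Its PT D7 libraries were the lowest of the 6, and PT D7 against PT D1 gave -0.87 ± 0.36 (SE, log2) with an adjusted p of 0.22.

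Cdkn1a, the gene of p21, was the only member called between conditions in both classes. In NSPCs it was at 129 and 52.3 CPM in uninjured libraries, 383 and 338 at PT D1, and PT D7 gave 24.2 and 40.4. In microglia it was at 46.7 and 68.3, 278 and 473, and 40.7 and 74.2 CPM. In each class both PT D1 libraries lay above the other 4, and the uninjured and PT D7 libraries overlapped in microglia.

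**Figure D3:**
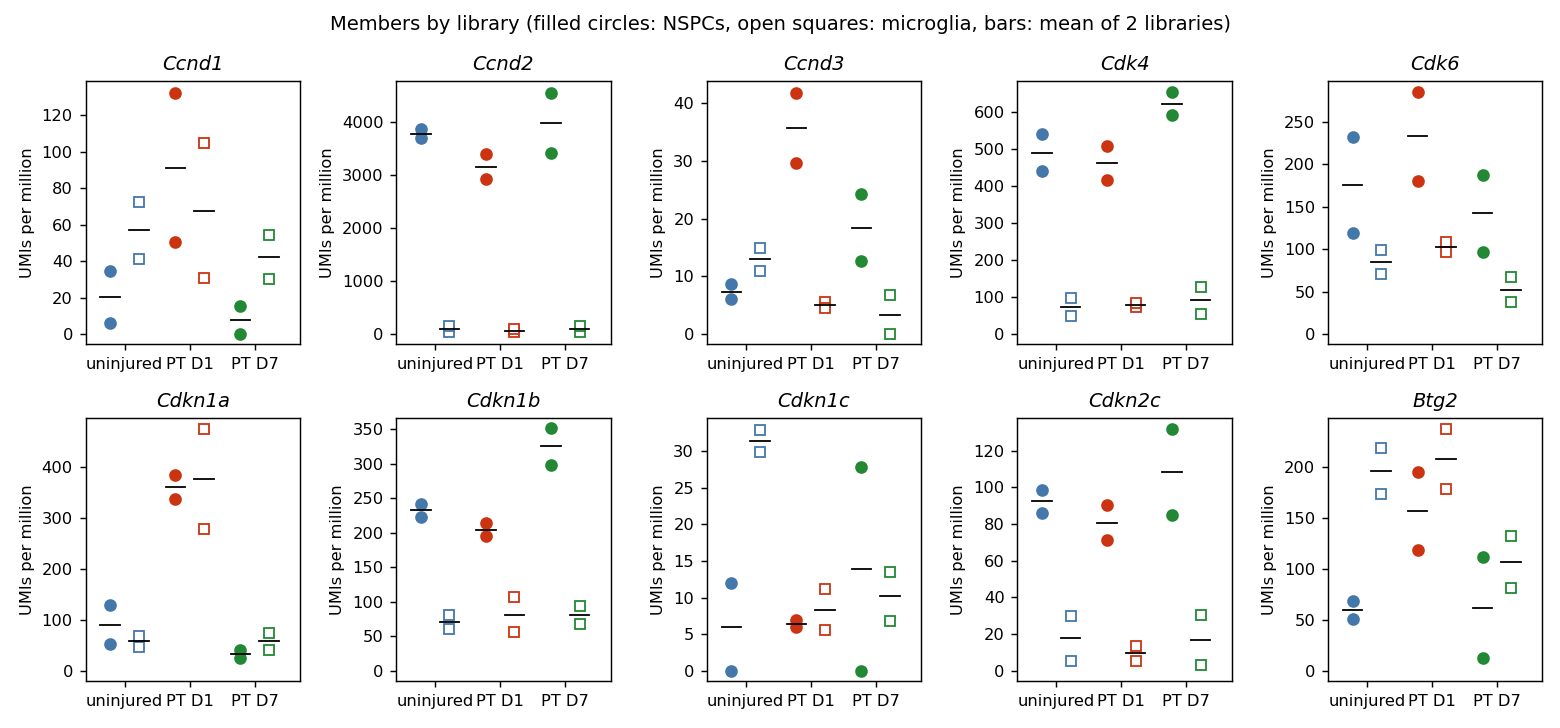
CPM of each of the 10 genes by library, with NSPCs as filled circles, microglia as open squares and the mean of 2 libraries as a bar, in uninjured, PT D1 and PT D7 mice. The 4 PT D1 values of Cdkn1a, 278 to 473, lie above all other values of that gene.

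Against uninjured, Cdkn1a rose 4.54-fold in NSPCs at PT D1 (log2 fold change 2.18 ± 0.34 SE, adjusted p = 0.00097) and 7.05-fold in microglia (2.82 ± 0.35, adjusted p = 0.0013), by the same test in edgeR. It fell by 3.24 ± 0.40 on the log2 scale in NSPCs from PT D1 to PT D7 (adjusted p = 3.6e-05, edgeR) and by 2.62 ± 0.36 in microglia (adjusted p = 0.0027, edgeR). PT D7 against uninjured gave -1.05 ± 0.47 in NSPCs and 0.20 ± 0.40 in microglia, with adjusted p of 0.995 and 0.954 in edgeR. Cdkn1a was thus 1 of 8 members called at PT D1 in NSPCs, where 2.12% of all genes were called, and 1 of 9 in microglia, where 5.7% were. Of the genes called in microglia at PT D1 47.8% were higher, or 33.7% without TMM scaling, which shifted the median of all genes by -0.13 (log2). From PT D1 to PT D7 it was again the only member called, against 0.632% of genes in NSPCs and 3.8% in microglia, and at PT D7 against uninjured 0 members were called, against 0.0815% and 0.165%. The difference between the effects in microglia and NSPCs at PT D1 was 0.58 ± 0.55 (log2, microglia minus NSPCs, adjusted p = 0.91, edgeR), and of 7514 genes 0 were called for such a difference, with 6.03% at an unadjusted p under 0.05.

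Uninjured library 2 decides the NSPC call, because without it the log2 fold change at PT D1 was 1.44 with an adjusted p of 0.084 in edgeR's test. In the other uninjured library 11 of the 15 Cdkn1a UMIs came from 4 activated type B cells. In microglia the fall from PT D1 to PT D7 had an adjusted p of 0.066 without PT D7 library 1. Beside the rise, immediate early genes summed to 1524 to 2168 CPM in PT D1 NSPCs against 783 to 969 in uninjured ones, and to 2847 to 4933 against 1891 to 2595 in microglia, and the choroid markers above were lower after PT. Their part in the result was not tested.

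By NSPC subcluster, the PT D1 level of Cdkn1a stood farthest from the uninjured one in quiescent type B cells, a description with no test. Quiescent type B cells had 42.2 CPM in uninjured mice (5 UMIs in 17 cells, exact Poisson 95% interval 13.7 to 98.4), 610 at PT D1 (63 UMIs in 18 cells, 469 to 781) and 25.2 at PT D7 (2 UMIs in 15 cells, 3.05 to 91.0). Their libraries were at 0 and 48.0 CPM in uninjured mice, 710 and 580 at PT D1, and PT D7 gave 0 and 36.7. At PT D1, 16 of 18 quiescent type B cells held a Cdkn1a UMI, against 4 of 17 uninjured ones, and after thinning to 1000 UMIs 9 of 18 did, against 0 of 17 and 0 of 15. Type C cells went from 62.6 to 492 and then 17.0 CPM, with 346 to 678 as the interval at PT D1. Activated type B cells had 183 CPM in uninjured mice, 284 at PT D1, and PT D7 gave 110, and neuroblasts 32.3, 74.0 and 22.8, and in these 2 subclusters the intervals of uninjured and PT D1 cells overlapped.

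**Figure D4:**
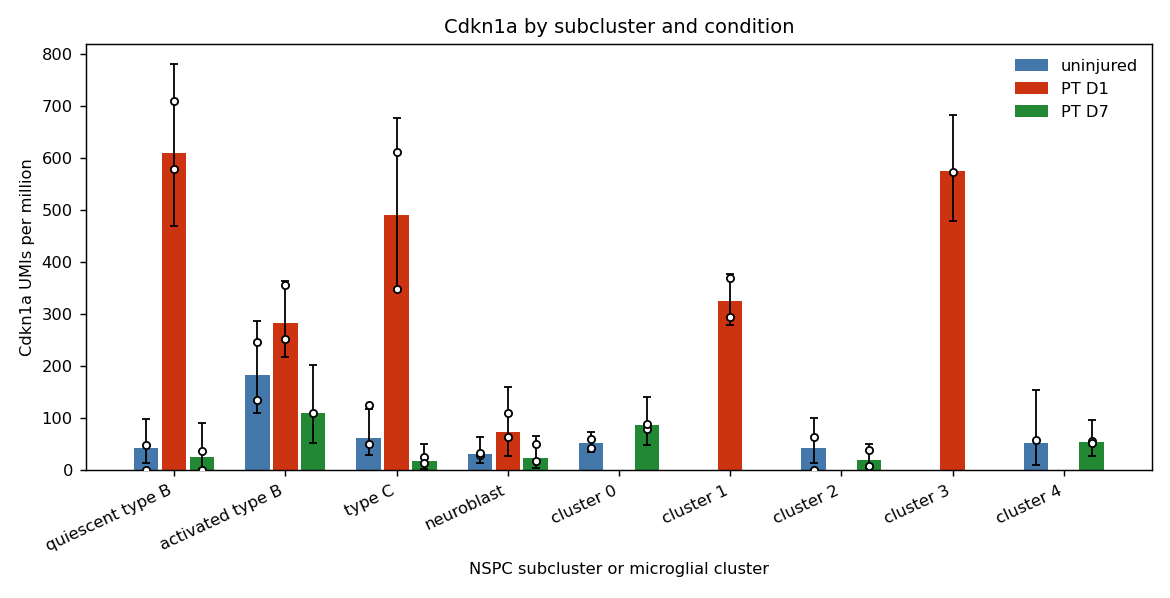
Cdkn1a CPM in each NSPC subcluster and microglial cluster by condition (bars from 0, summed over libraries, shown where at least 5 cells were present), with exact Poisson 95% intervals and open circles for libraries with at least 3 cells. Quiescent type B cells are at 42.2 in uninjured mice and 610 at PT D1, and clusters 1 and 3 hold the high microglial values.

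NSPC composition moved with condition, since activated type B cells were 4 of 16 and 4 of 59 NSPCs in the uninjured libraries and 6 of 19 and 19 of 52 at PT D1. Among type B cells alone, quiescent and activated together, Cdkn1a rose by 1.71 ± 0.41 (log2, adjusted p = 0.0092, edgeR) at PT D1. The mix among type B cells moved too. Activated and quiescent cells were 4 and 3 in uninjured library 1 and 4 and 14 in uninjured library 2. They were 6 and 4 in PT D1 library 1 and 19 and 14 in PT D1 library 2, and the part of this mix was not tested. Microglial markers in quiescent type B cells were at 2.75%, 3.29% and 12.5% of their level in microglia of uninjured, PT D1 and PT D7 mice, and their part in the Cdkn1a values was not tested. In neuroblasts alone Cdkn1a was too low to be tested. Both of these fits took libraries with at least 5 cells. PT D7 library 1, with 4 quiescent and 0 activated type B cells, was left out of the type B fit. PT D1 library 1, with 4 neuroblasts, was left out of the neuroblast fit.

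In microglia the level followed the clusters, which are nearly separate by condition. Cluster 1, found only at PT D1, had 326 CPM (280 to 377) and cluster 3 had 585, against 63.2 in cluster 0, 32.5 in cluster 2 and 52.1 in cluster 4. Cluster 0 had 52.3 CPM in uninjured mice and 86.3 at PT D7, with overlapping intervals, and held 1 cell at PT D1, so the change of condition and the change of cluster cannot be told apart. The 3 uninjured cells of cluster 3, all of library 2 and with a median of 1668 UMIs, were at 658 CPM (7 UMIs, 265 to 1356). The 36 PT D1 cells of that cluster were at 575 (128 UMIs, 480 to 684), with overlapping intervals. Without cluster 3 the rise at PT D1 was 2.78 ± 0.28 (log2, adjusted p = 2.8e-05, edgeR).

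Among the Cip/Kip UMIs (Cdkn1a, Cdkn1b and Cdkn1c together), Cdkn1a made up 34.9% and 18.2% in uninjured NSPC libraries, 65.5% and 60.6% at PT D1, and PT D7 gave 6.45% and 11.0%. In microglia it made up 33.3% and 38.1%, 82.0% and 80.0%, and 33.3% and 42.3%. The PT D1 libraries of both classes lay above all others.

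Cdkn1b, the gene of p27, which accumulates in cells that leave the cycle, was not called in any comparison. In NSPCs it was at 241 and 223 CPM in uninjured libraries, 195 and 213 at PT D1, and PT D7 gave 352 and 298. The order of PT D1, uninjured and PT D7 held without overlap, but PT D7 against PT D1 gave 0.63 ± 0.27 (log2, SE) with an adjusted p of 0.38 in edgeR. By subcluster it was highest in type C cells (316 CPM) and neuroblasts (283), with 187 and 176 in activated and quiescent type B cells. In microglia cluster 3 stood out with 216 CPM, against 44.4 to 78.1 in the other clusters. Cdkn1c, the gene of p57, had 20 UMIs in NSPCs and was found at 0 of 301177 UMIs of quiescent type B cells, which allows up to 9.96 CPM. In microglia Cdkn1c was at 32.9 and 29.9 CPM in uninjured libraries, 5.56 and 11.2 at PT D1, and PT D7 gave 13.6 and 6.75. Both uninjured libraries lay above the other 4, the log2 fold change at PT D1 was -1.70 ± 0.71 (SE, adjusted p = 0.19, edgeR), and the choroid markers named above were high in the same 2 libraries. In uninjured library 1 the 12 Cdkn1c UMIs of microglia came from 4 cells, and 1 of these cells held 9. The place of this library above the PT libraries thus rests on 1 cell.

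Cdkn2c, the INK4 inhibitor p18, followed the dividing subclusters, with 159 CPM in type C cells, 144 and 19.9 in activated and quiescent type B cells, and 56.5 in neuroblasts. Every type C library (97.9 to 195) lay above every quiescent type B library (0 to 37.8). In microglia it had 34 UMIs. It was not called between conditions, and PT D7 against PT D1 in NSPCs gave 0.61 ± 0.36 (log2, SE).

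Btg2 was at 68.9 and 50.3 CPM in uninjured NSPC libraries, 195 and 118 at PT D1, and PT D7 gave 12.1 and 111. Both PT D1 libraries lay above the other 4, with a log2 fold change of 1.33 ± 0.44 (SE) and an adjusted p of 0.12 in edgeR, and 4 of 14 alternatives gave an adjusted p under 0.05, the lowest at 0.016 and the highest at 0.52. The highest adjusted p among these alternatives came from the fit of type B cells alone, quiescent and activated together. Activated type B cells held 54 of the 68 Btg2 UMIs of PT D1 NSPCs. They were at 86.8 CPM in uninjured mice, 243 at PT D1, and PT D7 gave 374, whereas quiescent type B cells were at 126, 77.5 and 37.8. Of the NSPCs, 8 of 75 were activated type B cells without injury, against 25 of 71 after 1 day. PT D7 library 1, the one with 12.1 CPM of Btg2, held 0 of them among its 15 NSPCs. How far the mix of subclusters sets the library values of Btg2 was not tested. In microglia Btg2 was at 173 and 218 CPM in uninjured libraries, 178 and 237 at PT D1, and PT D7 gave 81.4 and 132, and the PT D7 libraries were the lowest. PT D7 against PT D1 gave -0.88 ± 0.30 (log2, SE) with an adjusted p of 0.13 in edgeR. With the library number as a block in the fit it was -0.88 with an adjusted p of 0.037 in edgeR.

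Other genes of the G1 to S step were not called between conditions. Of 33 further genes of this step (cyclins E and A, Cdk2, Rb and E2F families, other inhibitors and Btg/Tob genes) 17 were tested in NSPCs and 7 in microglia. In the 6 comparisons 0 were called, where 0.0815% to 5.7% of all genes were, so few calls were to be had. With edgeR at an unadjusted p under 0.05 there were 0 or 1 of them in each comparison, against 4.69% to 22.0% of all genes. Of 23 other p53 pathway genes, 10 were tested in NSPCs and 0 were called at PT D1, where 2.12% of all genes were. Their median log2 fold change was 0.36 against 0.03 over all genes. In microglia 11 were tested and 2 rose at PT D1, where 5.7% of all genes were called. These were Trp53inp1, by 1.87 (adjusted p = 0.039, edgeR), and Ddit4, by 1.08 (adjusted p = 0.033, edgeR). Both fell from PT D1 to PT D7, where 3.8% of all genes were called and Ddit4 fell by 3.92 (log2). Ddit4 was also lower at PT D7 than in uninjured microglia (-2.83, adjusted p = 0.011, edgeR). Of 30 S and G2/M genes 29 were tested in NSPCs and 0 were called in a comparison of conditions, against 0.0815% to 2.12% of all genes. At an unadjusted p under 0.05 in edgeR were 7 of 29 at PT D1 (14.8% of all genes), 2 at PT D7 against uninjured (4.69%) and 10 at PT D7 against PT D1 (10.8%). In the last comparison 25 of the 29 were positive, with a median of 0.61 (log2). Of 11 tested in microglia 0 were called, against 0.165% to 5.7% of all genes. At an unadjusted p under 0.05 in edgeR were 0 to 2, against 7.33% to 22.0% of all genes. Of 20 immediate early genes, 4 of 11 tested rose in NSPCs at PT D1 (2.12% of all genes were called), among them Klf10 by 3.31, Junb by 2.87 and Egr1 by 2.73 (log2). In microglia 4 of 14 rose (5.7% of all genes were called), among them Ier3 by 3.30 and Dusp1 by 2.81. From PT D1 to PT D7, 5 of them fell in each class, where 0.632% of all genes were called in NSPCs and 3.8% in microglia.

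The cell cycle phase that the authors gave each cell was used to set members side by side within libraries. Among NSPCs 99 cells were called G1, 64 S and 59 G2M, and 47 of 50 quiescent type B cells but 0 of 47 type C cells were called G1, so phase and subcluster move together. How the phase was called is not described. The standard lists of 97 phase genes hold 0 members, and scoring the cells with them gave the same phase in 95.3% of cells. The calls thus follow expression in these same cells, and genes that vary with the phase genes differ between phases partly by this grouping. The p-values of phases take no account of it. A G1 call also covers quiescent cells. Sums of at least 3 cells were available for each phase in all 6 libraries, and 6 members were among the 1150 genes tested with the library as a block.

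Ccnd2, Cdk4 and Cdk6 were higher in S than in G1. Ccnd2 ranged from 880 to 2661 CPM in the G1 cells of a library and from 3786 to 8473 in its S cells, without overlap, and rose by 1.21 ± 0.23 (log2, SE, adjusted p = 0.00026, edgeR). Cdk4 ranged from 110 to 342 in G1 and from 551 to 1032 in S, without overlap, and rose by 1.32 ± 0.21 (adjusted p = 3.0e-05, edgeR). Cdk6 ranged from 0 to 125 in G1 and from 177 to 493 in S, without overlap, and rose by 1.67 ± 0.44 (adjusted p = 0.0052, edgeR). These were 3 of 6 members tested, against 33.2% of all genes called between S and G1. Of the 382 genes called 42.7% were higher in S, and without TMM scaling, which shifted the median of all genes by 0.42 (log2), 76.2% of 530 were.

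In G2M the order was another. Cdk4 stayed above G1 (490 to 736 CPM, log2 fold change 1.07 ± 0.21, adjusted p = 0.00031, edgeR), and Cdkn2c rose by 2.62 ± 0.35 (adjusted p = 3.4e-06, edgeR), from 0 to 45.4 CPM in G1 cells and 33.4 to 81.5 in S cells to 149 to 281 in G2M cells. The G2M libraries of Cdkn2c lay above all S and G1 libraries. These were 2 of 6 members, against 33.9% of all genes, of which 45.9% were higher in G2M, or 80.7% without TMM scaling. Cdk6 missed the threshold (1.17 ± 0.46, adjusted p = 0.053, edgeR), as did Ccnd2 (0.35 ± 0.23, adjusted p = 0.26, edgeR), whose G2M cells at 2091 to 4444 CPM overlapped with G1 and S. Cdk6 was called in 5 of 11 alternatives (0.69 to 1.74, adjusted p from 0.0015 to 0.29, edgeR) and Ccnd2 in 2 of 12 (-0.32 to 0.85, adjusted p from 0.0022 to 0.58). Cdkn1b, at 163 to 293 CPM in G1, was not called in either phase.

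**Figure D5:**
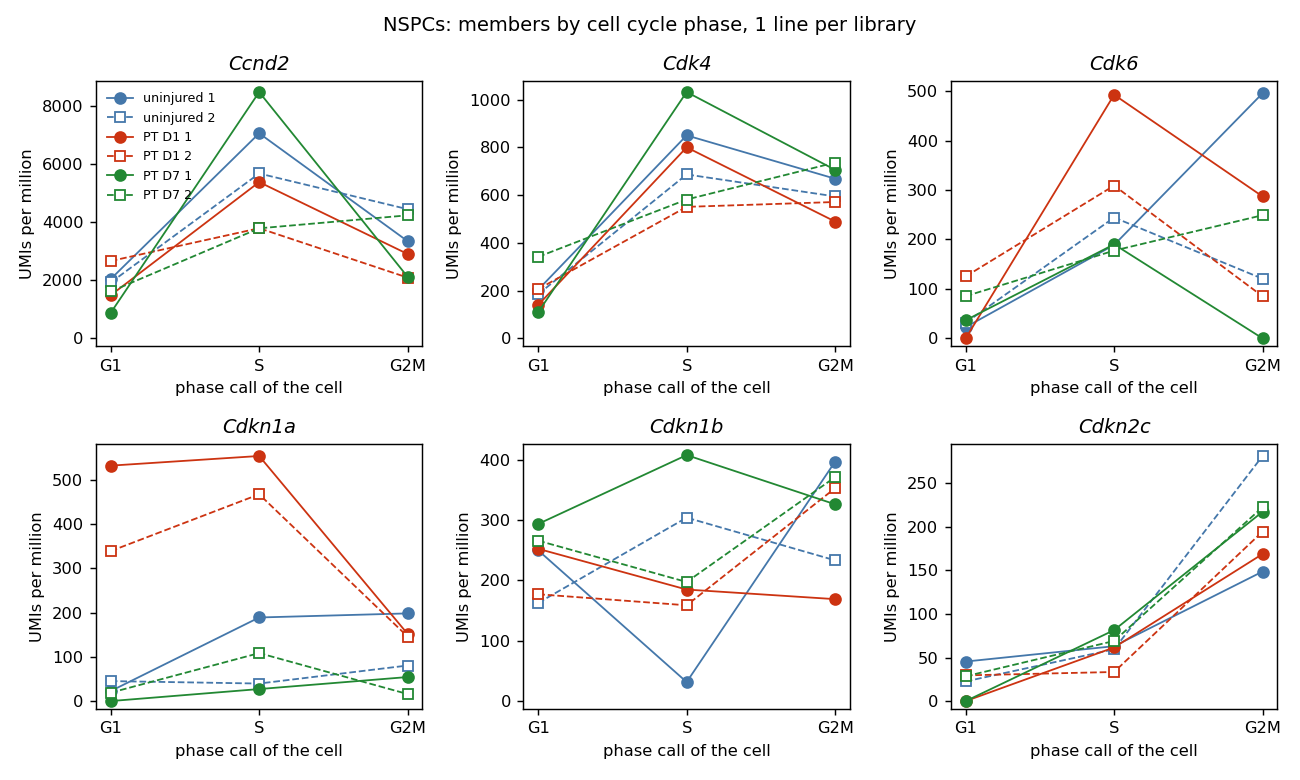
CPM of 6 genes in NSPCs called G1, S and G2M, with 1 line for each of the 6 libraries, coloured by condition. Ccnd2, Cdk4 and Cdk6 lie higher in S than in G1 in every library, Cdkn2c is highest in G2M in every library, and the 2 PT D1 libraries hold the high Cdkn1a values of G1 and S.

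Without quiescent type B cells Cdk4 kept its calls (0.87 in S, adjusted p = 0.0018, and 0.63 in G2M, adjusted p = 0.019, edgeR), Cdkn2c kept its call in G2M, and Ccnd2 in S missed the threshold (0.47, adjusted p = 0.089). Neuroblasts alone, which hold cells of all 3 phases, had 320, 557 and 500 CPM of Cdk4 in G1, S and G2M, 3482, 5067 and 3848 of Ccnd2, and 31.3, 0 and 180 of Cdkn2c. Cdkn1a at PT D1 was at 532 and 339 CPM in G1 cells and 554 and 467 in S cells, against 152 and 146 in G2M cells, and in the other 4 libraries it was at 0 to 45.2 in G1, 27.2 to 189 in S and 15.9 to 198 in G2M. The PT D1 libraries thus lay above the other 4 in G1 and S, but below an uninjured library in G2M. Over all libraries its phase differences were 0.24 ± 0.40 for S and -0.88 ± 0.45 for G2M (log2, SE), and neither was called. Without quiescent type B cells, which hold much of the Cdkn1a of G1 cells, the difference of S from G1 was 2.07 (adjusted p = 0.0041, edgeR). Of the other NSPCs, 48 neuroblasts and 4 activated type B cells were called G1. Called S were 17 neuroblasts, 21 activated type B cells and 25 type C cells, so phase and subcluster cannot be told apart here. Within neuroblasts Cdkn1a was at 35.2, 38.4 and 40.0 CPM in G1, S and G2M (9, 4 and 4 UMIs).

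In microglia 387 of 416 cells were called G1, 15 S and 14 G2M. The 14 G2M cells had 816 CPM of Ccnd2, 352 of Cdk4 and 113 of Cdkn2c, against 61.9, 71.8 and 12.4 in the G1 cells. Markers of activated type B and type C cells summed to 1646 CPM in these 14 cells and to 76.1 in the G1 cells, microglial markers to 4306 and 11116, and 10 of the 14 cells held at least 3 NSPC markers. Mki67 and Top2a, which mark dividing cells of any kind, are among the markers of activated type B and type C cells. The part of NSPC transcripts in these values was not tested.

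Over 29 sums of libraries and subclusters with at least 5 cells, the levels of Ccnd2 and Cdk4 went together (Pearson r = 0.92 on log2(CPM + 10) values, a description over sums that share libraries). Among 2502 genes, Hmgb3 (r = 0.97), Nfib (0.97) and Bex2 (0.97) were most like Ccnd2, and Hmgn2, Sumo2 and Hsp90aa1 (0.95 each) most like Cdk4. Ncl (0.80) was most like Cdk6, Serp1 (0.76), Rheb (0.69) and Ier3 (0.64) most like Cdkn1a, Atpif1 (0.87) most like Cdkn1b, and Dennd4a (0.73) most like Btg2.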

How the data were processed

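Microglia and NSPCs of the 6 libraries were sequenced by mCEL-Seq2. The authors deposited UMI counts for 34203 matrix rows, of which 92 are ERCC spike-ins with 0 UMIs, and a table of 658 cells with their class, subcluster, phase, mitochondrial percent and phase score. Per the submitters' processing notes, bcl2fastq 2.17.1.14 and GRCm39 were used. Cells entered the deposited matrix above 1000 UMIs, inside 3 median absolute deviations and up to 25% mitochondrial reads. The phase method and the counter's strand setting are not given in those sources, and doublets were excluded by the authors at the sorter and by the upper UMI limit that the 3 deviations set. In all, 10 columns of that list of cells were not used. The cell names of both PT D7 libraries share their leading number, so the library number was read from the number before the well number.

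Counts were summed per library and class (at least 10 cells) or phase (at least 3 cells). For type B cells, neuroblasts or cluster 0 alone, at least 5 cells were required. The sums were tested in R 4.3.3 with edgeR 4.0.16, by its quasi-likelihood test with TMM scaling and filtering of low genes. Benjamini-Hochberg adjustment was used at 0.05. Conditions were compared over the 6 libraries of a class, phases with the library as a block, and classes by their interaction with condition. The SE of a log2 fold change is its absolute value divided by the square root of the F statistic of that test. It is not a spread computed from 2 libraries. The procedure was tested on simulated data. Levels are counts per 1000000 UMIs (CPM) with exact 95% intervals, and a count of 0 was given the limit of 3 counts. DESeq2 1.42.0 and other filters, scalings, blocks and cell subsets were tried, each library was left out in turn, and phases were scored again with Seurat 5.3.0. Deviations of libraries with the same number correlated at 0.193 to 0.262 in microglia and at -0.0581 to 0.095 in NSPCs, over genes. A pairing by number is thus possible in microglia. The main tests used no block for it in either class, and a fit with this block was an alternative.

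All members are named. Other genes are named as the top 3 by size among those called in a list or the top 3 by likeness of pattern. The members and lists were chosen with earlier results of these data known.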

Additional observations from a re-analysis of the deposited data

Results flagged for a closer look

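The 20 cells labelled unknown or ependymal entered no comparison. In the 8 such cells of PT D1 Cdkn1a was at 546 CPM (36 UMIs, exact Poisson 95% interval 382 to 756), above the 127 CPM (7 UMIs, 51.1 to 261) of the 4 uninjured ones. The 8 cells of PT D7 were at 307 CPM (20 UMIs, 187 to 473). This was flagged as a signal in cells outside the main comparisons that lay above the uninjured cells, and the intervals cover counting error only.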

How the results depend on the processing

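Over all alternatives 1057 values of members were computed, 104 changed sign and 0 of these were called. Some alternatives had only 1 library in a condition. These were the fits without a library, the type B fit at PT D7 and the neuroblast fit at PT D1. Cdkn1a at PT D1 was called in 13 of 14 alternatives in NSPCs (log2 fold change 1.44 to 2.65) and in 17 of 17 in microglia (2.36 to 3.11), and from PT D1 to PT D7 in 14 of 14 and 15 of 17. In microglia this fall was lost after thinning (-2.11, adjusted p = 0.093 in edgeR) and without PT D7 library 1 (-2.29, adjusted p = 0.066).

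The number of members called in NSPCs at PT D1 (1) became 2 without TMM scaling, 2 without a filter, 3 with only both conditions in the fit, and 0 with at least 10 UMIs in every library, after thinning or in neuroblasts alone, where Cdkn1a was too low to be tested. From PT D1 to PT D7 (1) it became 2 without a filter and 0 with at least 10 UMIs in every library, after thinning or in neuroblasts alone. In microglia from PT D1 to PT D7 (1) it was 0 after thinning. Between S and G1 (3) it was 1 after thinning and 4 without TMM scaling, where Cdkn2c was also called (1.21, adjusted p = 0.033 in edgeR), and between G2M and G1 (2) it was 4 without TMM scaling, 4 without a filter and 0 after thinning. After thinning 98.28% of the D-type cyclin UMIs of NSPCs came from Ccnd2. Leaving out a library gave 0 to 3 members in NSPCs at PT D1, 1 to 2 from PT D1 to PT D7, 0 to 2 in microglia from PT D1 to PT D7 and 1 to 3 between G2M and G1. Without TMM scaling the calls over all genes moved too, from 104 to 129 in NSPCs at PT D1. They went from 382 to 530 between S and G1 and from 390 to 549 between G2M and G1. For the other alternatives, here and below, no count over all genes is given. Their changes in members were not compared with changes in all genes and are not read as particular to the members. Where an alternative tests fewer genes or UMIs its lower count follows from its construction, and otherwise the cause was not tested.

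With the library number as a replicate block, 2 members were called in microglia from PT D1 to PT D7, Cdkn1a (-2.62) and Btg2 (-0.88, adjusted p = 0.037 in edgeR). In NSPCs, where libraries of the same number showed little correlation, Cdkn1a at PT D1 was 2.16 with this block (adjusted p = 0.0023, edgeR). The block changed no other call of a member between conditions. In cluster 0 alone only PT D7 against uninjured could be fitted.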
